A study of Rattus norvegicus with 54 samples.

Results

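The 54 libraries of bulk RNA from rat nucleus accumbens were ranked by the share of their counts that fell on long non-coding RNA (lncRNA) genes, and the 13 libraries with the highest share were set against the 13 with the lowest. The 26 libraries were chosen by this measured share, that is, counts of the 10879 rows of biotype lncRNA over counts of all 45785 named genes, so lncRNA levels are given here as a description with no test. Tests were run on the genes other than lncRNA, with the study group as covariate, and the 28 libraries in between were used separately. All animals were Long Evans rats. The groups were ethanol-exposed before birth (PAE) or came from dams on a free-choice liquid diet (FCL), followed in adolescence by alcohol (AAE) or water (VEH). Tissue was collected in adolescence (postnatal day 42, P42), 24 h past the final adolescent dose, or in adulthood (P90). By label, PAE-VEH had 9 male and 4 female libraries at P42, and PAE-AAE had 6 male and 5 female libraries at P90. FCL-VEH, the controls, had 9 male and 7 female libraries at P42 and 6 male and 8 female libraries at P90. All exposed P90 animals had both exposures, so effects of the 2 cannot be told apart there.

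Many lncRNA are kept in the nucleus, and many are spliced slowly or lie within or against protein-coding genes. Meg3 is an imprinted nuclear lncRNA of the brain, Miat is a neuronal nuclear lncRNA, and Snhg11 and Gas5 carry small nucleolar RNAs (snoRNAs) in their introns. Transcripts of splicing regulators such as the CLK kinases often hold back introns and stay in the nucleus, whereas messenger RNAs of ribosomal proteins, respiratory enzymes and the proteasome are short, stable and mostly cytoplasmic. In bulk tissue, fewer cells of a type and less RNA per cell cannot be told apart.

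The lncRNA share ran between 1.257% and 1.616% in the 13 high-share libraries, with a median of 1.278%, and between 0.651% and 0.989% in the 13 low-share libraries, with a median of 0.881%. The 28 other libraries lay between 1.012% and 1.256%, and the median of all 54 was 1.108%. The highest share was in female FCL-VEH P90 replicate 4 and the lowest in male PAE-VEH P42 replicate 6. At the upper edge, female FCL-VEH P90 replicate 6 was inside with 1.2573% and female FCL-VEH P42 replicate 2 was outside with 1.2559%. At the lower edge, male FCL-VEH P42 replicate 9 was inside with 0.98892% and male PAE-VEH P42 replicate 1 was outside with 1.0125%. Neither edge marks a break in the values.

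The 13 high-share libraries held 8 of P42 and 5 of P90, 7 labelled female and 6 male, and 2 exposed and 11 controls. The 13 low-share libraries held 5 of P42 and 8 of P90, 5 labelled female and 8 male, and 5 exposed and 8 controls. By group, the high-share libraries were 4 of the male and 3 of the female FCL-VEH libraries at P42, 1 male and 3 female FCL-VEH libraries at P90, 1 female PAE-VEH library and 1 male PAE-AAE library. The low-share libraries were 3 male FCL-VEH libraries at P42, 3 male and 2 female FCL-VEH libraries at P90, 2 male PAE-VEH libraries and 3 female PAE-AAE libraries. Only 3 of the 8 groups held both classes. Once group is a covariate, the comparison therefore rests on 16 libraries, 8 high and 8 low, all of them controls, and the other 10 libraries add nothing to the difference. In 2 of the high-share libraries, and in 1 of the 28 others, Xist and Y-linked genes went against the labelled sex.

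The share followed the library number that stands in the sample titles. These numbers start at 8, and the labels do not say what they stand for; a single batch date is recorded for every library. Of the 13 high-share libraries, 12 were numbered 60 to 93. That stretch held 17 libraries in all, of 7 groups, and the other 5 were in the middle class. Of the 13 low-share libraries, 5 were numbered 8 to 37 and the other 8 had numbers above 93, up to 180. When the 54 libraries were put in order of number and split into 4 runs, the median share was 1.03%, 1.27%, 1.11% and 1.04%, and each run held libraries of 6 to 8 of the 8 groups. Depth moved with it: the high-share libraries had a median of 69.8 M counts (59.1 to 93.6 M), against 79.8 M (69.3 to 94.4 M) in the low-share libraries. RNA integrity is not given per library. Library number and share class overlap so closely that within the 26 libraries they cannot be told apart for single genes: with the number added to the model as a smooth curve, edgeR's quasi-likelihood test called 0 genes, and 2981 had an unadjusted p under 0.05. The direction was the same for 4581 of the 4582 genes called without the number. Those genes were picked by their difference in the same 26 libraries, so the kept direction is a description only. Over all 54 libraries, the same model with the share as a number and the library number as a curve called 7092 genes. These fits were added after the data were seen.

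**Figure D1:**
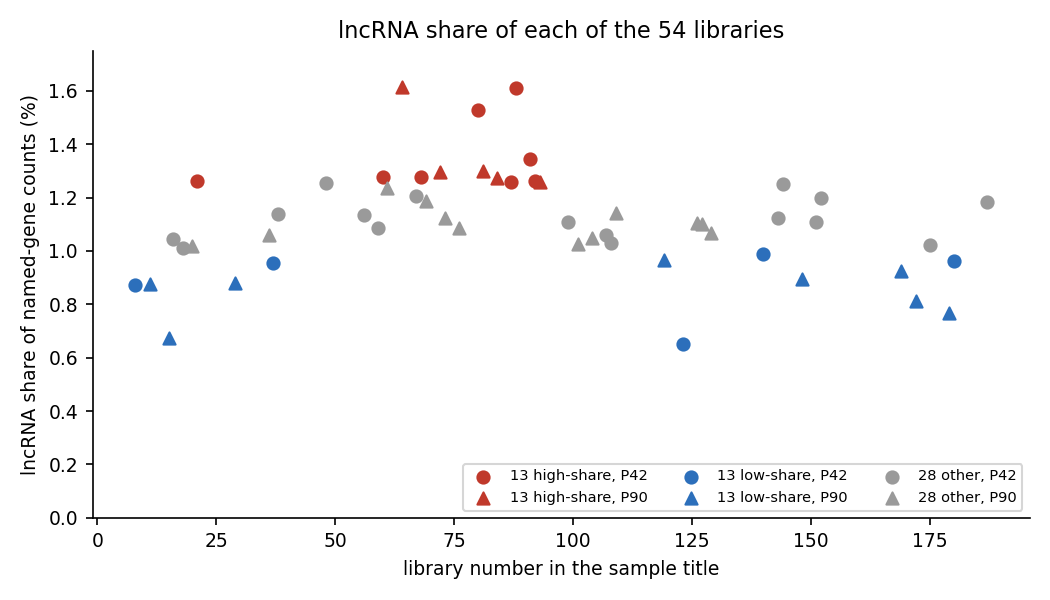
Share of named-gene counts on lncRNA (%, vertical axis) against the library number in the sample title (horizontal axis). Each point is 1 of 54 libraries, coloured by class, with circles for P42 and triangles for P90; 12 of the 13 high-share libraries lie between numbers 60 and 93, where there is no low-share library.

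Set by the study's groups instead of by rank, the share did not differ past the threshold in any of 6 comparisons (exact permutation tests, two-sided, Benjamini-Hochberg over the 6). It averaged 1.168% ± 0.0975 in male PAE-AAE libraries at P90 (SD, n = 6) and 0.991% ± 0.196 in male FCL-VEH libraries (SD, n = 6), and all 6 exposed libraries lay above the control median (exact permutation p = 0.0866, adjusted p = 0.256). In females at P90 the direction was the other way, with 0.972% ± 0.0769 in PAE-AAE (SD, n = 5) against 1.12% ± 0.284 in FCL-VEH libraries (SD, n = 8), with an exact permutation p of 0.307. PAE-VEH libraries at P42 averaged 1.015% ± 0.153 in males (n = 9) and 1.189% ± 0.0856 in females (n = 4), against 1.126% ± 0.168 (n = 9) and 1.311% ± 0.183 (n = 7) in the FCL-VEH libraries of the same sex (SD; exact permutation p = 0.162 in males and 0.245 in females). Among controls, P90 libraries averaged 0.136 percentage points below P42 libraries in males and 0.195 below in females (exact permutation p = 0.170 and 0.143).

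Among the lncRNA themselves, the higher share was spread over many genes. After the filter on low counts, 3795 lncRNA were left; 3065 of them were higher in the high-share libraries, and the median log2 fold change over all 3795 was 0.59. These values follow from the way the libraries were chosen. A gene that passed the filter only through its level in the high-share libraries had to be higher, so these counts describe and support nothing. The 2428 lncRNA that overlap another gene's span had a median of 0.67, and the 1367 that overlap none had 0.43. The libraries do not record strand, so reads of an overlapping gene can be counted on either row. The 12 most abundant lncRNA took 24.3% of all lncRNA counts on average.

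Meg3, the most abundant, lies at chr6:134274056-134306249. It ranged from 654 to 1045 counts per 1 M counts (CPM, scaled to genes other than lncRNA) in the high-share libraries, with a median of 848, against 186 to 631 CPM in the low-share libraries, with a median of 367. Every high-share library was above every low-share library, and the log2 fold change was 1.04. Miat ranged from 139 to 286 CPM in the high-share libraries, against 51.4 to 151.6 CPM in the low-share libraries, a log2 fold change of 0.77 with a small overlap. Snhg11 ranged from 117 to 183 CPM, against 44.6 to 116 CPM, a log2 fold change of 0.69 with no overlap. Of the abundant loci known only by identifier, LOC120097382, LOC103690870, LOC120100931 and LOC102554677 had log2 fold changes between 0.74 and 0.90. The last 3 span the hairpins of miR-384, miR-137 and miR-124 (Mir384, Mir137, Mir124-1), which are neuronal microRNAs.

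Not every lncRNA followed. Oip5-as1, a cytoplasmic lncRNA of the brain also known as Cyrano, ranged from 239 to 348 CPM in the high-share libraries and from 212 to 588 CPM in the low-share libraries, with a log2 fold change of -0.36. LOC134483799, which overlaps Zfp365, had -0.30, and LOC100911992, which spans Mir9-1, had -0.26. As a share of lncRNA counts, Oip5-as1 took 2.198% of lncRNA counts in the high-share libraries and 4.13% in the low-share libraries, and Meg3 took 6.58% and 4.31%. Gas5, a snoRNA host that took 0.161% of lncRNA counts on average, differed by 0.06 on the log2 scale, Pantr1 by 0.09, Crnde by 0.06 and Snhg4 by -0.21. Ftx and Jpx of the X-inactivation centre had log2 fold changes of 0.55 and 0.62, Pvt1 had 0.61 and Mir9-3hg 0.32. Xist, the RNA that coats the inactive X chromosome, took 2.94% of lncRNA counts on average and followed sex. Ranked without Xist, 11 of the 13 high-share and 12 of the 13 low-share libraries were the same; LOC134484082, which overlaps Xist, followed it.

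**Figure D2:**
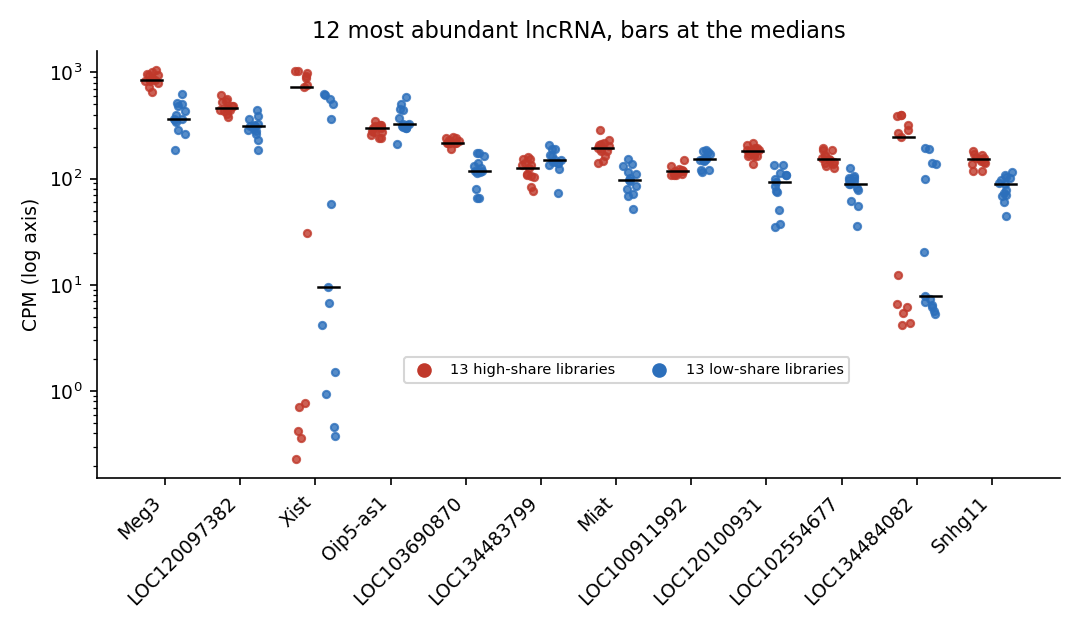
CPM (log axis) of the 12 most abundant lncRNA, with 1 point per library, high-share libraries to the left of low-share libraries within each gene, and bars at the medians. Meg3, LOC103690870, LOC120100931 and Snhg11 show no overlap between the classes, Oip5-as1, LOC134483799 and LOC100911992 are lower in the high-share libraries, and Xist and LOC134484082 split by sex.

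Genes other than lncRNA differed broadly between the classes. Their library sizes and scaling factors were computed without lncRNA, although the share that ranked the libraries has all named genes in its denominator. edgeR's quasi-likelihood test with Benjamini-Hochberg adjustment called 4582 of 17699 genes at an adjusted p under 0.05, which is 25.9%. Of these, 2195 rose in the high-share libraries (12.4% of genes tested) and 2387 fell (13.5%). The median size of a called change was 0.35 on the log2 scale. Large changes were mostly increases: 476 called genes rose by more than 1 on the log2 scale and 35 fell by more than 1. The same skew held over all genes tested, called or not. Level went with direction: among protein-coding genes, the median log2 fold change was 0.19 in the fifth of lowest mean level. It was -0.10 in the fifth of highest mean level. Whether rows of few counts account for the excess of large increases was not tested. Without male FCL-VEH P90 replicate 2, the only high-share library of its group, 2805 genes were called. With total counts as a further covariate, 2217 genes were called, of which 1167 rose and 1050 fell.

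The called protein-coding genes with the smallest adjusted p among those that rose included several that act on RNA. Clk1, a kinase that phosphorylates splicing factors, ranged from 103 to 125 CPM in the high-share libraries, with a median of 116, against 59.3 to 93.1 CPM in the low-share libraries, with a median of 77.0. All 13 high-share libraries were above all 13 low-share libraries, and the log2 fold change was 0.56 ± 0.07 (SE; edgeR adjusted p = 0.000451). The splicing activator Tra2a ranged from 180 to 240 CPM in the high-share libraries, against 94.8 to 163 CPM in the low-share libraries, again with no overlap (log2 fold change 0.75 ± 0.10 SE). Ccnl2, a cyclin of the splicing machinery, averaged 111 ± 10.7 CPM in the high-share libraries and 67.7 ± 9.15 CPM in the low-share libraries (SD, n = 13 each; log2 fold change 0.67). The splicing factors Rbm5 and Prpf39 rose by 0.46 and 0.56 on the log2 scale, and Rsrp1, an arginine- and serine-rich protein, rose by 0.59. The others described here were Arv1 (0.49), which acts in sterol transport, the homeobox gene Dux4 (1.14), the zinc finger genes Zfp347 (0.86) and Zcchc2 (0.51), and Pan3 (0.52), a subunit of a poly(A) nuclease. None of the 11 genes named here overlapped between the classes. All 11 had an edgeR adjusted p of 0.000451 and a positive slope in the 28 other libraries.

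The 12 with the smallest adjusted p among those that fell were mostly parts of protein synthesis, protein breakdown and respiration. Psmc5, an ATPase of the proteasome cap, ranged from 97.1 to 126.5 CPM in the high-share libraries, with a median of 110, against 119.03 to 186 CPM in the low-share libraries, with a median of 154. The ranges overlapped slightly, and the log2 fold change was -0.45 ± 0.07 (SE; edgeR adjusted p = 0.000499). Rplp1, a protein of the ribosomal stalk, averaged 247 ± 24.6 CPM in the high-share libraries and 384 ± 83.0 CPM in the low-share libraries (SD, n = 13 each; log2 fold change -0.56). Slc25a3, the mitochondrial phosphate carrier, ranged from 291 to 331 CPM in the high-share libraries, against 348 to 428 CPM in the low-share libraries, with no overlap (log2 fold change -0.30). Uqcrc1 of respiratory complex III (-0.37), Rpl15 of the large ribosomal subunit (-0.39) and the mitochondrial glutaredoxin Glrx5 (-0.50) did not overlap either. The remaining genes overlapped: Cox8a of cytochrome oxidase (-0.47), Rack1 of the small ribosomal subunit (-0.37), Cops6 of the COP9 signalosome (-0.43), Ube2m, which conjugates NEDD8 (-0.47), the acylphosphatase Acyp2 (-0.51) and the neuronal vesicle gene Nrsn1 (-0.46). Nrsn1 was the only one of the 12 whose slope in the 28 other libraries ran the other way, at 0.28 ± 0.22 (SE).

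By gene list, the splicing genes rose together and the genes of protein synthesis and energy supply fell together. Over all 17699 genes the median was -0.02 and 25.9% were called. Among 22 SR proteins and splicing regulators, 17 rose and 0 fell, with a median log2 fold change of 0.34. Besides Tra2a, the largest were Pnisr at 0.75 ± 0.12 (SE), Srrm2 at 0.60 ± 0.10 (SE) and Srrm1 at 0.51 ± 0.08 (SE). Srrm2, a core protein of nuclear speckles, ranged from 769 to 1091 CPM in the high-share libraries, against 428 to 736 CPM in the low-share libraries. The 2 ranges did not overlap.

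Among 18 kinases and enzymes known for detained introns, 16 rose and 0 fell, with a median of 0.39. Nktr, a cyclophilin with an arginine- and serine-rich tail, ranged from 236 to 307 CPM in the high-share libraries and from 107.4 to 211 CPM in the low-share libraries (log2 fold change 0.70). The RNA helicase Ddx17 rose by 0.62 and the cyclin Ccnl1 by 0.59. Of 25 chromatin remodellers and histone methyltransferases, 12 rose and 0 fell, with a median of 0.20; the largest were Baz2b (0.57), Kmt2a (0.52), Kmt2d (0.51) and Kdm6b (0.48).

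The machinery of nuclear RNA decay and of paraspeckles was mixed. Of 21 genes of the nuclear exosome and RNA decay, 6 rose and 1 fell, with a median of 0.08. Zcchc7 of the nuclear polyadenylation complex rose by 0.85 ± 0.17 (SE), Smg1, a kinase of nonsense-mediated decay, by 0.54, and Zfc3h1 and Zcchc8, which bring nuclear transcripts to the exosome, by 0.48 and 0.37. The exosome subunit Exosc4 was the 1 that fell, by 0.21. Of 17 paraspeckle and speckle proteins, 6 rose and 1 fell, with a median of 0.07. Sfpq averaged 371 ± 32.1 CPM in the high-share libraries and 246 ± 35.3 CPM in the low-share libraries (SD, n = 13 each), a log2 fold change of 0.56, while Matr3 fell by 0.19.

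Among 27 tested cytosolic ribosomal proteins, 0 rose and 26 fell, with a median log2 fold change of -0.39. The largest were Rps27a at -0.84 ± 0.23 (SE), Rplp1, Rps14 at -0.53 ± 0.09 (SE) and Rps12 at -0.52 ± 0.13 (SE). The fall was less complete outside the list. Of 82 tested protein-coding genes named Rpl, Rps or Rplp with a number, 64 fell and 2 rose. This name pattern was chosen after the values were seen. Ribosomal protein and haemoglobin genes, like Dux4, have near-identical copies, and how reads were shared among copies is not given, so their levels are uncertain. Rps14 ranged from 136 to 170 CPM in the high-share libraries and from 167 to 369 CPM in the low-share libraries. Of 18 translation factors, 0 rose and 15 fell, with a median of -0.26, led by Eef1b2 (-0.42), Tpt1 (-0.42), Eif3h (-0.32) and Eef2 (-0.32). Of 26 nuclear-encoded subunits of oxidative phosphorylation, 0 rose and 26 fell, with a median of -0.40. Ndufa2 of complex I ranged from 23.1 to 31.7 CPM in the high-share libraries and from 32.9 to 64.01 CPM in the low-share libraries, without overlap. Cox6c (-0.54), Ndufa1 (-0.51) and Uqcrq (-0.50) came next.

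Of 18 proteasome subunits, 0 rose and 18 fell, with a median of -0.30, led by Psmb4 (-0.52), Psmb6 (-0.47), Psmc5 and Psmb1 (-0.37). Of 14 glycolytic enzymes, 0 rose and 12 fell, with a median of -0.28, led by Tpi1 (-0.44), Ldhb (-0.42), Pgk1 (-0.40) and Gapdh (-0.38). Gapdh, often used as a reference transcript, ranged from 927 to 1109 CPM in the high-share libraries and from 1067 to 1566 CPM in the low-share libraries. Of 18 chaperones, 0 rose and 12 fell, with a median of -0.21, led by Hsp90aa1 (-0.37), Hspe1 (-0.36), Hspa8 (-0.29) and Cct2 (-0.27). Of 18 presynaptic vesicle proteins, 0 rose and 10 fell, with a median of -0.27, led by the complexins Cplx1 (-0.49) and Cplx2 (-0.40), Rab3a (-0.40) and Syp (-0.36). With total counts as a covariate, 25 of the 27 ribosomal proteins, 25 of the 26 respiratory subunits and 14 of the 18 proteasome subunits still fell, and 16 of the 22 splicing regulators and 12 of the 18 kinases still rose. The same covariate left 10 of the 18 translation factors, 10 of the 14 glycolytic enzymes, 5 of the 18 chaperones and 3 of the 18 presynaptic proteins called lower. With library number as a curve within the 26 libraries none of these passed, and the medians were -0.27 for ribosomal proteins, -0.31 for respiratory subunits, 0.27 for splicing regulators and 0.33 for the kinases. Over all 54 libraries with both share and library number in the model, 26 ribosomal proteins and 26 respiratory subunits fell and 17 splicing regulators and 16 kinases rose.

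**Figure D3:**
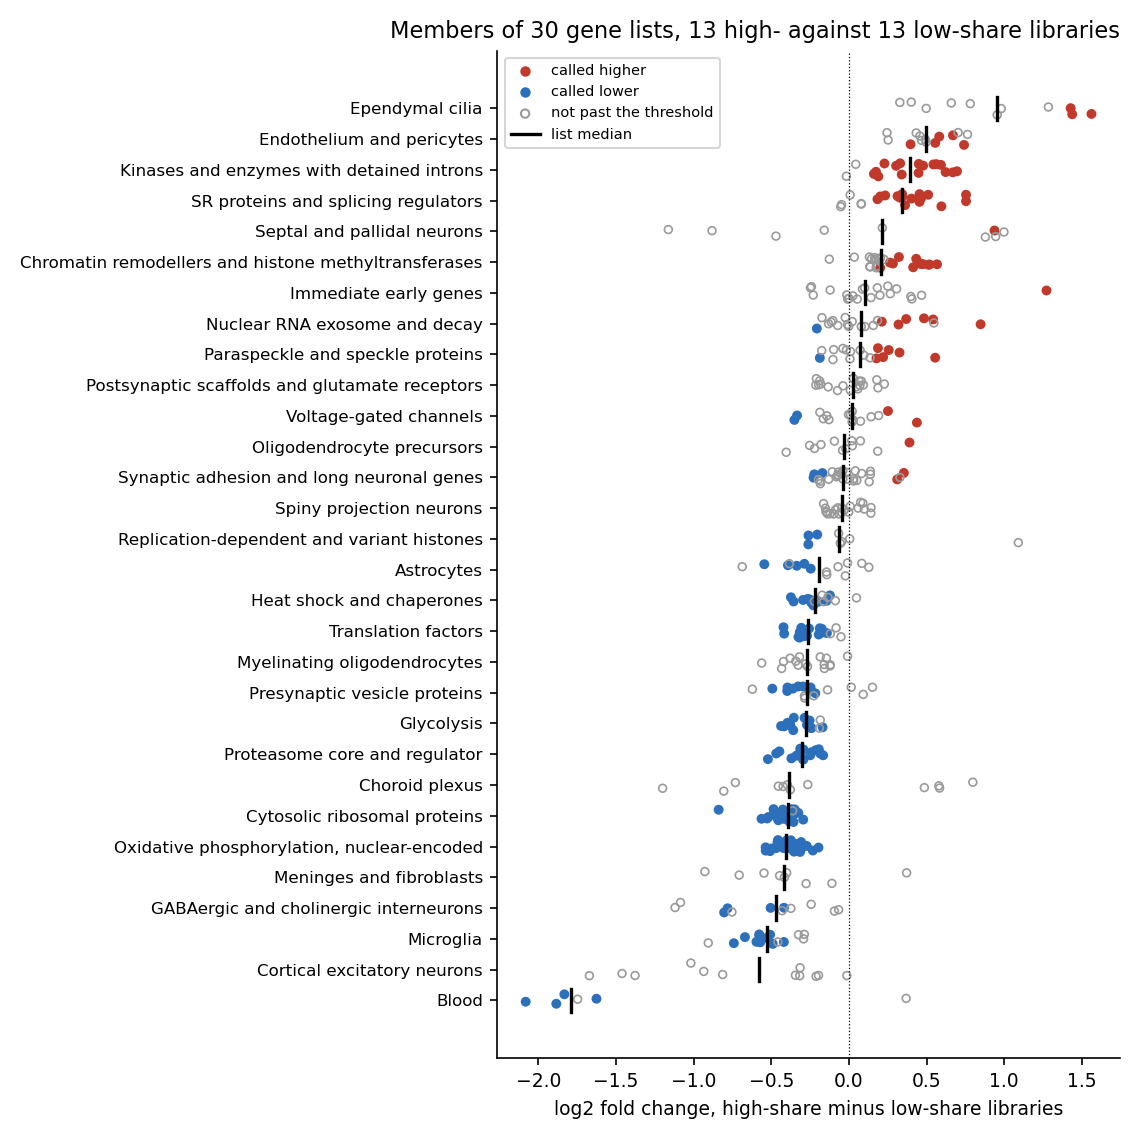
Log2 fold change between high-share and low-share libraries (horizontal axis) of the tested members of 30 gene lists, with red points for genes called higher, blue for genes called lower, open grey for genes not past an adjusted p of 0.05, and black bars at the list medians. Respiratory subunits (26 of 26) and proteasome subunits (18 of 18) lie to the left of 0, and splicing regulators and kinases with detained introns mostly to the right.

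Messenger RNAs of ribosomal proteins and elongation factors commonly begin with a C followed by a run of pyrimidines, the terminal oligopyrimidine tract. The 30 bases around the RefSeq gene start in assembly GRCr8 (15 before and 15 after, on the gene's strand) were searched for 3 motifs that can overlap: the run CTTTC, the run CTTTT, and the run TTTCC. On the gene's strand, 15 of 23 ribosomal protein genes with a start sequence held at least 1 of the 3 motifs, as did 3 of 13 translation factors, 0 of 23 respiratory genes, 0 of 20 splicing regulators and 2 of 16 kinases with detained introns. Of the 13428 genes tested that have a start sequence, 9.64% held one, or 16.8% on either strand. The shared tract is shown in 4 ribosomal protein genes that fell, beside 4 genes that rose and hold none, with motif bases in capitals; a match or its absence says only what letters stand in this window.
Rplp1: gcaggcgcatgtgatcCTTTCCtcagctgc
Rps15: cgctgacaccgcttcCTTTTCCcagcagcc
Rpl4: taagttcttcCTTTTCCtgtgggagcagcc
Rps14: cccttccgtctctctCTTTCCggtggagga
Rbm5: tgtcctgcggagctgtggcgatccagtcct
Srrm1: gcacactgggatagggagcgatctccgagc
Srsf11: attgctgcgcgcgctgatgtcgtcaccgcc
Clk1: cgcccatctacgtcaccagttttcggacaa

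The change followed transcript length. Among protein-coding genes tested, in the fifth with the shortest transcripts in the deposited table (1856 bases or less), 3.01% rose and 31.2% fell, with a median log2 fold change of -0.20. In the fifth with the longest transcripts (7308 bases or more), 26.5% rose and 2.93% fell, with a median of 0.12. The 3 classes between lay in order between these. In the 28 other libraries, which did not enter that fit, the medians of the share slope ran in the same order, at -0.14 for the shortest and 0.15 for the longest. Abundant genes also fell more often, with 29.8% called lower in the fifth of highest mean level and 1.49% in the fifth of lowest. Within the upper 2 of the 5 classes of level alone, the medians were -0.21, -0.07 and 0.05 from the shortest to the longest of 3 length classes. Genomic span gave a flatter order, from -0.15 for the shortest spans to 0.03 for the longest. Protein-coding genes whose span overlaps a lncRNA had a median of 0.01 (376 of 2923 rose and 298 fell), and those that overlap none had -0.03 (1621 of 13483 rose and 2049 fell).

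**Figure D4:**
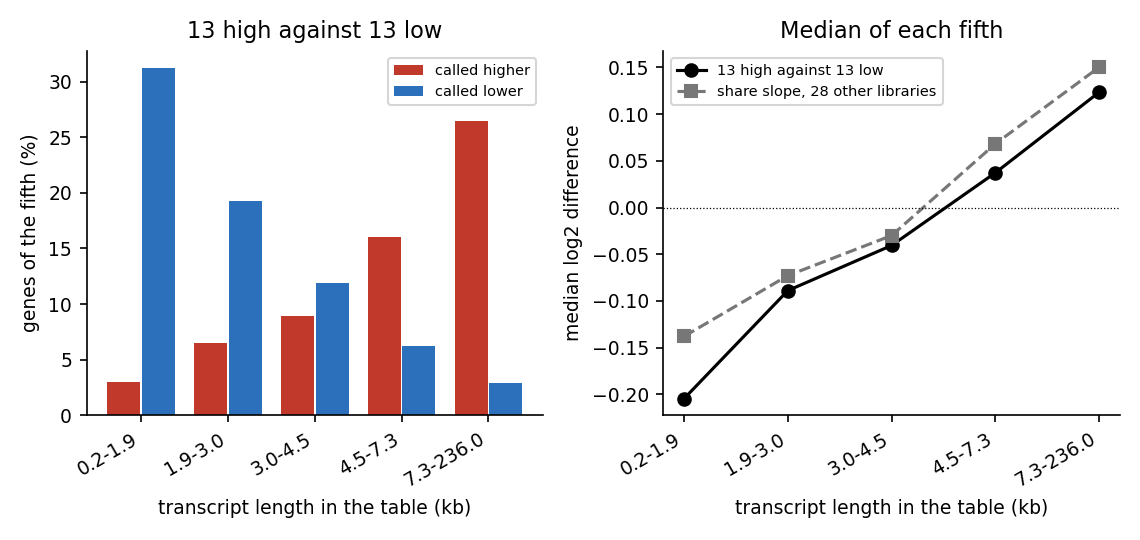
Protein-coding genes in 5 equal classes of transcript length (kb, horizontal axis). On the left, bars give the percentage called higher (red) and lower (blue) in high-share against low-share libraries; on the right, the median log2 fold change of that comparison (circles) and the median share slope in the 28 other libraries (squares) both run from below 0 for the shortest to above 0 for the longest.

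Markers of cell types were measured beside these lists, and their calls are to be read against the 25.9% called over all genes. Markers of spiny projection neurons, the main cell type of the nucleus accumbens, were present at high levels, and 0 of 21 passed the test in either direction, with a median of -0.05. Penk, the opioid precursor of these neurons, averaged 854 ± 312 CPM in the high-share libraries and 917 ± 189 CPM in the low-share libraries (SD, n = 13 each; log2 fold change -0.14, edgeR adjusted p = 0.566), and Meis2 differed by 0.08. Of 19 postsynaptic genes, 0 passed, with a median of 0.03; Gria2 and Gria1 differed by 0.23 and 0.19. Of 15 microglial markers, 0 rose and 10 fell, with a median of -0.53. The complement gene C1qa ranged from 17.2 to 36.96 CPM in the high-share libraries and from 22.5 to 65.6 CPM in the low-share libraries (log2 fold change -0.60). Trem2 (-0.74), Tyrobp (-0.67) and C1qb (-0.58) fell as well. The number of microglial markers called lower was 3 with total counts as a covariate, 4 with the share taken from lncRNA that overlap no other gene, 5 with voom, and 6 both with 9 against 9 libraries and with the share without the 10 most abundant lncRNA. It was 4 without the female FCL-VEH P90 replicate 1 and 3 without the male FCL-VEH P90 replicate 2.

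Of 14 endothelial and pericyte markers, 5 rose and 0 fell, with a median of 0.50, among them Rgs5 (0.74), Abcb1a (0.67), Pdgfrb (0.58) and Tek (0.56). Of 11 ependymal genes, 3 rose and 0 fell, with a median of 0.96, a share of calls near the 25.9% over all genes. Those 3, Dnah11 (1.56), Hydin (1.44) and Dnah5 (1.43), encode ciliary proteins and have very long transcripts. Of 14 astrocyte markers, 0 rose and 5 fell, with a median of -0.19; the largest were Gjb6 (-0.54), Aldoc (-0.39), Glul (-0.34) and S100b (-0.29). Of 12 interneuron markers, 4 fell, namely Slc18a3 (-0.80), Lhx6 (-0.78), Chat (-0.50) and Sst (-0.42). With total counts as a covariate, 3 endothelial genes and 1 ependymal gene were called higher, and 1 astrocyte and 1 interneuron marker were called lower. None of 16 myelin genes passed, with a median of -0.27, and Mbp and Cnp differed by -0.56 and -0.43. None of 12 cortical markers passed (median -0.58, with Lamp5 at -0.32 and Neurod1 at -1.67), but 6 fell when the libraries were ranked without Xist (median -1.52), 5 with 9 against 9 libraries (median -1.41), and 2 with the share from lncRNA that overlap no other gene (median -2.02). None of 12 choroid plexus genes passed (median -0.39, with Kcnj13 at -1.199), nor any of 9 meningeal genes (median -0.42, with Igf2 at -0.55). The choroid plexus median was 0.21 when the libraries were ranked without Xist and 0.28 with the share from lncRNA that overlap no other gene, and without the group covariate 6 choroid plexus and 6 meningeal genes were called lower. The low-share libraries reached far higher at the top of the range for some of these: Kl reached 58.9 CPM and Ptgds 2404 CPM in the low-share libraries, against 8.45 and 159 CPM at most in the high-share libraries. This was not particular to the low-share libraries. The mean centred log2 level of the choroid plexus genes reached 2.58 in them and 2.50 in the 28 others. Its medians were -0.15 in the low-share and -0.20 in the high-share libraries. Haemoglobin genes were low in most libraries and varied widely, with Hba-a1 at 0.164 to 8.54 CPM in the high-share libraries (median 3.38) and 0.492 to 47.0 CPM in the low-share libraries (median 6.15). Of 6 blood genes tested, 4 fell, namely Hba-a2 (-2.08), Hba-a1 (-1.88), Hbb-b1 (-1.83) and Hbb (-1.63), and all 4 had slopes of the opposite sign in the 28 other libraries; with total counts as a covariate none was called. Without the 2 libraries that earlier work on these data called outlying, 26 respiratory subunits and 27 ribosomal proteins fell and 17 splicing regulators rose. The part of cell makeup in these differences was not tested.

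In the remaining lists the calls are given beside the 25.9% called over all genes. Among 28 synaptic adhesion and long neuronal genes, 2 rose (Csmd3 at 0.35, Nav2 at 0.31) and 3 fell, among them Nrxn2 at -0.23 and Ctnna2 at -0.17. With total counts as a covariate none of these 5 was called. Of 17 voltage-gated channels, a share of calls near that of all genes, Cacna1e (0.44) and Cacna1b (0.25) rose, and Kcnc1 (-0.35) and Hcn2 (-0.33) fell. Of 21 immediate early genes, Npas4 alone passed, at 5.75 to 40.9 CPM in the high-share libraries and 2.15 to 12.8 CPM in the low-share libraries (log2 fold change 1.27). Of 8 histone genes tested, H3f3a (-0.26), H2az1 (-0.26) and H1f0 (-0.20) fell. Prdm16 (0.94) was the only septal and pallidal marker of 9 past the threshold, and Vcan (0.39) the only oligodendrocyte precursor marker of 12.

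The genes other than lncRNA include small RNA genes. The snoRNAs guide the modification of ribosomal RNA and are mostly cut from introns of host genes. Of the snoRNA rows tested, 26 rose, 1 fell and 102 did not pass, a share of calls below the 25.9% over all genes. Some of them lie within lncRNA whose counts ranked the libraries, such as Snora60 and Snora71e in Snhg11, and are not independent of the ranking. Of the 94 tested rows that overlap no lncRNA, 19 rose and 1 fell, with a median log2 fold change of 0.73. Rows of few counts can pass the filter through the high-share libraries alone, so these counts describe and support nothing. Summed without any filter, all snoRNA rows took 0.00858% to 0.0113% of counts other than lncRNA in the high-share libraries and 0.00436% to 0.00761% in the low-share libraries. Those that overlap no lncRNA took 0.00581% to 0.00776% in the high-share libraries and 0.00307% to 0.00512% in the low-share libraries, with no overlap between the classes. For these the difference within groups was 0.00261 percentage points, higher in 13 of 13 high-share libraries than in any low-share library (exact permutation within groups, p = 0.000714, the smallest that the 1400 arrangements can give; adjusted p = 0.00131 over 11 measures). The snoRNA and microRNA measures were added after the data were seen. For 79 snoRNA rows the gene around them on the same strand was also tested: the snoRNA rows had a median of 0.68, and their 55 hosts a median of -0.22, taken once per snoRNA row. In 75 of the 79 the snoRNA row lay above its host, a description only, since these rows of few counts were kept by the filter. Snord45a rose by 0.92 against -0.19 for its host Rabggtb, and Snora53 rose by 1.16 against -0.30 for Slc25a3. The only snoRNA that fell was Snord42b, at -0.76, inside Rpl23a at -0.36. Levels are low: Snord45a ranged from 0.966 to 2.43 CPM in the high-share libraries and from 0.328 to 1.37 CPM in the low-share libraries. How the authors' counter shared reads between a snoRNA row and its host is not given in the sources used here.

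**Figure D5:**
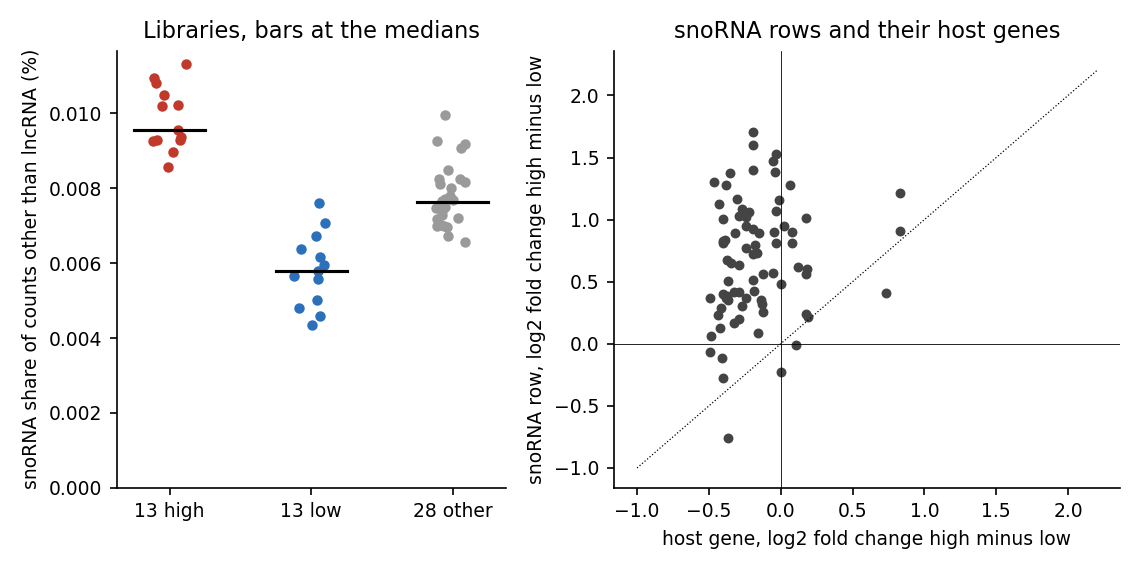
On the left, the share of counts other than lncRNA that fell on snoRNA genes (%), 1 point per library, for 13 high-share, 13 low-share and 28 other libraries with bars at the medians; high-share libraries all lie above low-share libraries. On the right, the log2 fold change of 79 snoRNA rows (vertical axis) against that of their host genes (horizontal axis), with equal change on the dotted line; 75 rows lie above it.

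MicroRNA rows, which here count reads over the hairpin and do not measure the mature microRNA, were tested and summed in the same way. Of 29 tested, 8 rose and 0 fell, with a median of 0.64, and of the 24 that overlap no lncRNA, 6 rose and 0 fell. Both shares of calls were near the 25.9% over all genes. As with the snoRNA rows, the filter can favour rows high in the high-share libraries, so these counts describe and support nothing. Summed without a filter, all microRNA rows took 0.00553% to 0.00941% of counts other than lncRNA in the high-share libraries and 0.00235% to 0.00539% in the low-share libraries, sums that include Mir770. The rows that overlap no lncRNA took 0.00267% to 0.00331% in the high-share libraries and 0.00153% to 0.00244% in the low-share libraries, again with no overlap (exact permutation within groups, p = 0.000714, adjusted p = 0.00131 over 11 measures). Mir770, inside Meg3 at chr6:134298084-134298159, ranged from 26.7 to 59.6 CPM in the high-share libraries and from 6.75 to 28.8 CPM in the low-share libraries (log2 fold change 1.24). Mir341 and Mir1188, on the same strand of chromosome 6 beyond the end of Meg3 (from 134347815 and 134348153), rose by 1.19 and 1.198. Mir374b lies inside the lncRNA Ftx and rose by 1.12. Since Meg3 and Ftx counts were part of the ranking, Mir770 and Mir374b are not independent of it. Mir341 and Mir1188 are counted among the rows that overlap no lncRNA, but whether they vary independently of Meg3 was not tested. The other 4 lie inside protein-coding genes: Mir186 rose by 0.77 against 0.14 for Zranb2, Mir3064 by 0.64 against 0.19 for Ddx5, Mir2985 by 1.08 against 0.23 for Gria2, and Mir149 by 1.16 against 0.19 for Gpc1. All 8 matched RefSeq, with 13 mature sequences and 13 different seeds, so no seed is shared. One arm of each is shown to identify the locus, with the seed (bases 2 to 8) in capitals.
rno-miR-770-5p: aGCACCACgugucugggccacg
rno-miR-341: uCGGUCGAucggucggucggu
rno-miR-1188-5p: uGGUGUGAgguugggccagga
rno-miR-374-5p: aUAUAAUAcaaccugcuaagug
rno-miR-186-5p: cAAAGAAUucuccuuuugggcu
rno-miR-3064-3p: uUUGCCACacugcaacaccuuaca
rno-miR-2985: uGUUAUAGuaucccaccuaccc
rno-miR-149-5p: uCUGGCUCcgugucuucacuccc

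Some further measures of the library moved with the class. Pseudogenes took 0.284% to 0.331% of counts other than lncRNA in the high-share libraries and 0.224% to 0.276% in the low-share libraries. Rows with no gene name, which entered neither the share nor the tests, were set against the same counts and came to 0.347% to 0.420% in the high-share libraries and 0.273% to 0.327% in the low-share libraries. In both cases all 13 high-share libraries lay above all 13 low-share libraries (exact permutation within groups, p = 0.000714 each, adjusted p = 0.00214 over the 6 planned measures). Rows that overlap a lncRNA were not taken out of these sums, so their independence of the ranking was not tested. Protein-coding genes spanning 100 kb or more took 23.4% ± 0.366 in the high-share libraries and 22.1% ± 1.03 in the low-share libraries (SD, n = 13 each; exact permutation p = 0.0107, adjusted p = 0.0214). The 10 most abundant genes took 3.26% ± 0.428 in the high-share libraries and 3.83% ± 0.610 in the low-share libraries (SD, n = 13 each; exact permutation p = 0.0179, adjusted p = 0.0268). The total of counts other than lncRNA averaged 69.5 ± 8.80 M in the high-share libraries and 79.3 ± 8.17 M in the low-share libraries (SD, n = 13 each), with a within-group exact permutation p of 0.161. Ribosomal RNA rows ranged from 0.0423% to 0.175% in the high-share libraries and from 0.0408% to 0.419% in the low-share libraries, a wide overlap (exact permutation p = 0.352). Small RNA biotypes together, ribosomal RNA rows among them, were a planned measure. They ranged from 0.0614% to 0.193% in the high-share libraries and from 0.0523% to 0.431% in the low-share libraries. Their within-group difference was -0.0349 percentage points (exact permutation p = 0.463, adjusted p = 0.463 over the 6 planned measures).

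The 28 libraries in between share no library with the comparison above, and there the share varied over a much narrower range. A slope on the share, scaled to the gap between the mean shares of the 2 classes, was fitted with the same group covariate. Library number was not in this model, so its part in these slopes was not tested. edgeR's quasi-likelihood test called 1 of 20548 genes, which is 0.00487%, and 2780 had an unadjusted p under 0.05. The gene called was Zbed6, a transcription factor gene that lies in an intron of Zc3h11a; it had a slope of 0.98 ± 0.14 (SE; edgeR adjusted p = 0.00576). Zbed6 averaged 97.1 ± 8.06 CPM in the high-share libraries and 52.6 ± 11.97 CPM in the low-share libraries (SD, n = 13 each; log2 fold change 0.88). Of the 4582 genes called between the classes, 3809 (83.1%) had a slope of the same sign, against 63.7% of all genes tested. At an unadjusted p under 0.05 in the 28 libraries, 1133 of those called genes ran the same way and 13 the other way. Among all genes tested, called or not, 2264 ran the same way at that p and 401 the other way.

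The list medians in the 28 libraries ran the same way for the main lists. The median slope was -0.31 for ribosomal proteins (26 of 27 of the same sign as between the classes), -0.37 for respiratory subunits (26 of 26), -0.20 for the proteasome (17 of 18), 0.32 for splicing regulators (20 of 22) and 0.38 for kinases with detained introns (14 of 18). No member of these lists passed an adjusted p of 0.05 there. Tra2a had a slope of 0.76 ± 0.15, Ccnl2 0.93 ± 0.16 and Slc25a3 -0.53 ± 0.10 (SE), each with an edgeR adjusted p of 0.0724. Lists of cell types differed among themselves. The median slope was 0.82 for endothelial and pericyte markers (12 of 14 of the same sign) and -0.34 for microglia (12 of 15). It was 0.43 for myelin genes (0 of 16), -0.18 for ependymal genes (2 of 11) and 3.21 for the choroid plexus (3 of 12). Spiny projection neuron markers had a median slope of -1.37 (14 of 21), postsynaptic genes -0.53 (6 of 19) and cortical markers 0.84 (4 of 12).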

How the data were processed

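Bulk RNA was sequenced from 54 libraries. Per the labels, cDNA was made with random hexamers without strand information, and RNA integrity numbers were above 6.3, except 1 of 5.8. The submitters' processing notes name fastp and HISAT2 2.0.5; which counter and genome build they used is not given in the sources used here. The values are raw counts per gene, as the authors deposited them; their FPKM columns were not used. Of 46505 rows, 720 have no name (0.271% to 0.412% of counts) and stayed out of sizes and tests; 45780 IDs matched GRCr8 with the same start and end. Totals were 59.1 to 103.8 M per library, so counting error is small for abundant genes but not for rows of few counts, the small RNA rows among them. Nothing says that libraries come from separate animals or litters; p-values measure only the spread between them.

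Genes other than lncRNA were tested across all genes passing edgeR's filter, with edgeR 4.0.16 (R 4.3.3), TMM, the quasi-likelihood test on group and class, and Benjamini-Hochberg at 0.05. A list is described by its calls and median, with no test of the list. For library measures all 1400 arrangements within groups were enumerated, in place of the random draws first planned. Named genes are the 12 higher and 12 lower protein-coding genes with the smallest adjusted p, a mean of at least 1 CPM and a symbol, up to 4 called members of a list by size (2 by p where none passed), the 12 most abundant lncRNA, and those of 55 written-down lncRNA names that passed the filter (12). Other genes named beside a sequence or as a host, Matr3, Exosc4, Ctnna2, Gria2 as a host, and Zbed6 were chosen after their values were seen. A few genes that these rules name are not reported here. The 30 gene lists, the libraries and the tests were chosen with earlier results of these data known. Alternatives were RLE factors, no filter, DESeq2 1.42.0, voom (limma 3.58.1), other covariates, other rankings and left-out libraries. Fits were tested on simulated data.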

Additional observations from a re-analysis of the deposited data

Results flagged for a closer look

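The lncRNA share of male PAE-VEH P42 replicate 6, at 0.6507%, stood far below the other 8 libraries of its group, which lay between 0.963% and 1.207%. Chance alone flags about 1 in 20 groups in this way, and 8 groups were looked at.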

How the results depend on the processing

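Between the 13 high-share and 13 low-share libraries, 4582 genes were called. Without the group covariate there were 7818 (3594 higher, 4224 lower), and with the share as a number over all 54 libraries 8881 (4172 higher, 4709 lower). With total counts added there were 2217 (1167 higher, 1050 lower). Ranking within groups gave 3391 higher. Among alternatives chosen after seeing the data, leaving out the 3 libraries above 1.5% gave 2933 (1316 lower). Library number as a curve, or as 4 runs, gave 0 in edgeR (2981 and 3915 at an unadjusted p under 0.05; both designs leave few libraries to tell number and class apart). All 54 libraries with share and number gave 7092 (3343 higher, 3749 lower). Leaving out each library gave 2805 to 5180 called, 1349 to 2603 higher and 1456 to 2656 lower; the lowest came without male FCL-VEH P90 replicate 2, and 1500 lower came without female FCL-VEH P90 replicate 1. The other settings stayed within 1.5 times. The 24 named genes passed under every setting but the 2 with library number in the 26 libraries, where none did and none changed sign. They were picked in the same 26 libraries, so the kept sign is a description only.

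In the 28 other libraries DESeq2 called 259 genes, against 1 in edgeR; the cause was not tested. Among library measures, total counts differed by -9.80 M without strata (permutation p = 0.00767). With the 9 highest against the 9 lowest, the share of the 10 most abundant genes differed by -0.693 (exact permutation p = 0.0278, adjusted 0.0556) and that of long genes by 1.45 (p = 0.0556, adjusted 0.0667). No share comparison between study groups passed under any setting. No paired analysis was possible because the labels give no replicate numbers; those used here follow the order of deposition.

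The comparison of classes rests on 16 control libraries from 3 groups, selected on a measured value, and the library number cannot be separated from the class there. Depth allows small fold changes to be seen in abundant genes, but most snoRNA and microRNA rows lie near 1 CPM or below.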
